A study of Equus caballus with 4 samples.

Results

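Cell division genes were described in differentiating equine satellite cells, the muscle stem cells that fuse into new fibres. The genes were 54 symbols of the cell cycle: 10 of the passage from G1 into S phase, 5 brakes on that step, 14 of DNA replication and 25 of mitosis. A gene was found where the gene name of a probe, control spots left out, was the symbol. This gave 48 of the 54 symbols on 78 probes, of 24998 different gene names on the array. A further 5 symbols (CCND1, CDC20, TOP2A, PLK1 and KIF23) stood only in the description of a probe. They were kept out of the counts below except where stated. The remaining symbol, CDC2, is the older name of CDK1. At least 1 channel was well above background on all 4 arrays for 44 of the 48 genes, and those genes were tested. CCNE2, CDC25A, RBL1 and FOXM1 were too dim for a test.

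The cells came from the m. semitendinosus of healthy 6-month-old stallions and were on day 3 of differentiation. HMB-treated cells were kept for 24 h with 50 µM HMB (β-hydroxy-β-methylbutyrate, a product of leucine breakdown) and met 3 mM H2O2 in the last 1 h. Control cells received the same H2O2 without HMB, so both groups carried the oxidative damage and no culture free of H2O2 was compared. Each of the 4 arrays, all on 1 slide, held 1 HMB-treated sample in Cy5 and 1 control sample in Cy3. Dyes were not swapped, so an effect of HMB and an effect of the dye on a probe cannot be told apart. The labels call the arrays biological replicates and name the control as replicate 1 on each of them, so whether the arrays shared 1 control RNA or held different ones is not settled. The methods state that 1 culture was chosen among those of all horses, so the spread between arrays may not be a spread between animals.

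A cell enters division when D cyclins with CDK4 and CDK6, and then E cyclins with CDK2, inactivate the retinoblastoma proteins and set free the E2F factors. E2F factors switch on the genes that license and copy DNA, and a later wave of genes builds the spindle and drives mitosis under CDK1. Myoblasts leave this cycle when they differentiate, and CDK inhibitors such as CDKN1B help to hold them out of it. The messages of the S phase and mitotic genes are abundant in dividing cells and scarce in resting ones. In RNA of a whole culture, fewer dividing cells and less of a message per cell cannot be told apart.

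The probes that carry the results are 60 bases long and are shown because several of them read the same gene. Positions are on the EquCab1 build named in the array files. Exon and UTR annotation of that build was not used here. CDK6, the gene with the clearest fall, had 1 probe, whose ends lie 5195 bases apart (chr4:35864201-35869395). PCNA had 3 probes, and the one that passed the test (chr22:17971128-17971270) and its neighbour (chr22:17971251-17971310) are printed first and second. MCM2 and CDKN1B had 5 probes each, which were shifted by a few bases along 1 stretch (MCM2 from chr16:196248 to 196322, CDKN1B from chr6:40733798 to 40733861). Capitals mark the bases that all 5 probes of the gene share, 45 for MCM2 and 56 for CDKN1B, so those probes are not independent readings of different parts of the message. CDK1 (chr1:49550596-49553167) and CENPE (chr3:62538932-62538991) stand for the mitotic genes, as do the probes of MKI67 (chr1:4734985-4735044 and chr1:4739957-4740016), which lie far apart in the gene.
CDK6: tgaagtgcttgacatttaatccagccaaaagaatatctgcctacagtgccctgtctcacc
PCNA, called probe: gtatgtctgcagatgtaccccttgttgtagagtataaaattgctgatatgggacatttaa
PCNA, neighbour: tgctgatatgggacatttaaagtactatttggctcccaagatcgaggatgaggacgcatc
MCM2, outer probe: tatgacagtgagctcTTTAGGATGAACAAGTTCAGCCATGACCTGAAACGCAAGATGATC
MCM2, outer probe: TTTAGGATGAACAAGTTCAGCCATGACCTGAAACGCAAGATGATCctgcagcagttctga
CDKN1B, outer probe: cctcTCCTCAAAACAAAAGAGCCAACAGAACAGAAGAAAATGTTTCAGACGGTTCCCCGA
CDKN1B, outer probe: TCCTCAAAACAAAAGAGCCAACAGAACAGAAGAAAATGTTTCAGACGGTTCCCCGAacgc
CDK1: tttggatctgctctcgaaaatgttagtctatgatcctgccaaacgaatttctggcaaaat
MKI67: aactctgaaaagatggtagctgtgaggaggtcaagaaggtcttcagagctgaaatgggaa
MKI67: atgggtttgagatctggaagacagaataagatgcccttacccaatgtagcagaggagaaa
CENPE: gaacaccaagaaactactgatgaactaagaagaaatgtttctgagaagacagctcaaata

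The first comparison asked which cell division genes differed between HMB-treated and control cells. CDK6 fell and PCNA rose, and no other gene of the 44 passed both limits. The S phase and mitotic genes did not keep 1 direction over the 4 arrays: most of them were above control on replicates 1 and 2 and below it on replicates 3 and 4. Values are log2 ratios of HMB-treated over control as deposited, and a gene was called where limma gave an adjusted p of 0.05 or less over all 24669 tested probes and the fold change (FC) was 1.3 or more. Of all tested probes 28.6% were called. By the brightest probe of each gene symbol 10.1% were called higher and 17.2% lower. Of the 44 cell division genes 1 was called higher and 1 lower, both below those shares. In limma 7 of the 44 had an unadjusted p under 0.05, against 13570 of the 24669 tested probes. Of the 73 tested probes of these genes, 2 were called.

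**Figure D1:**
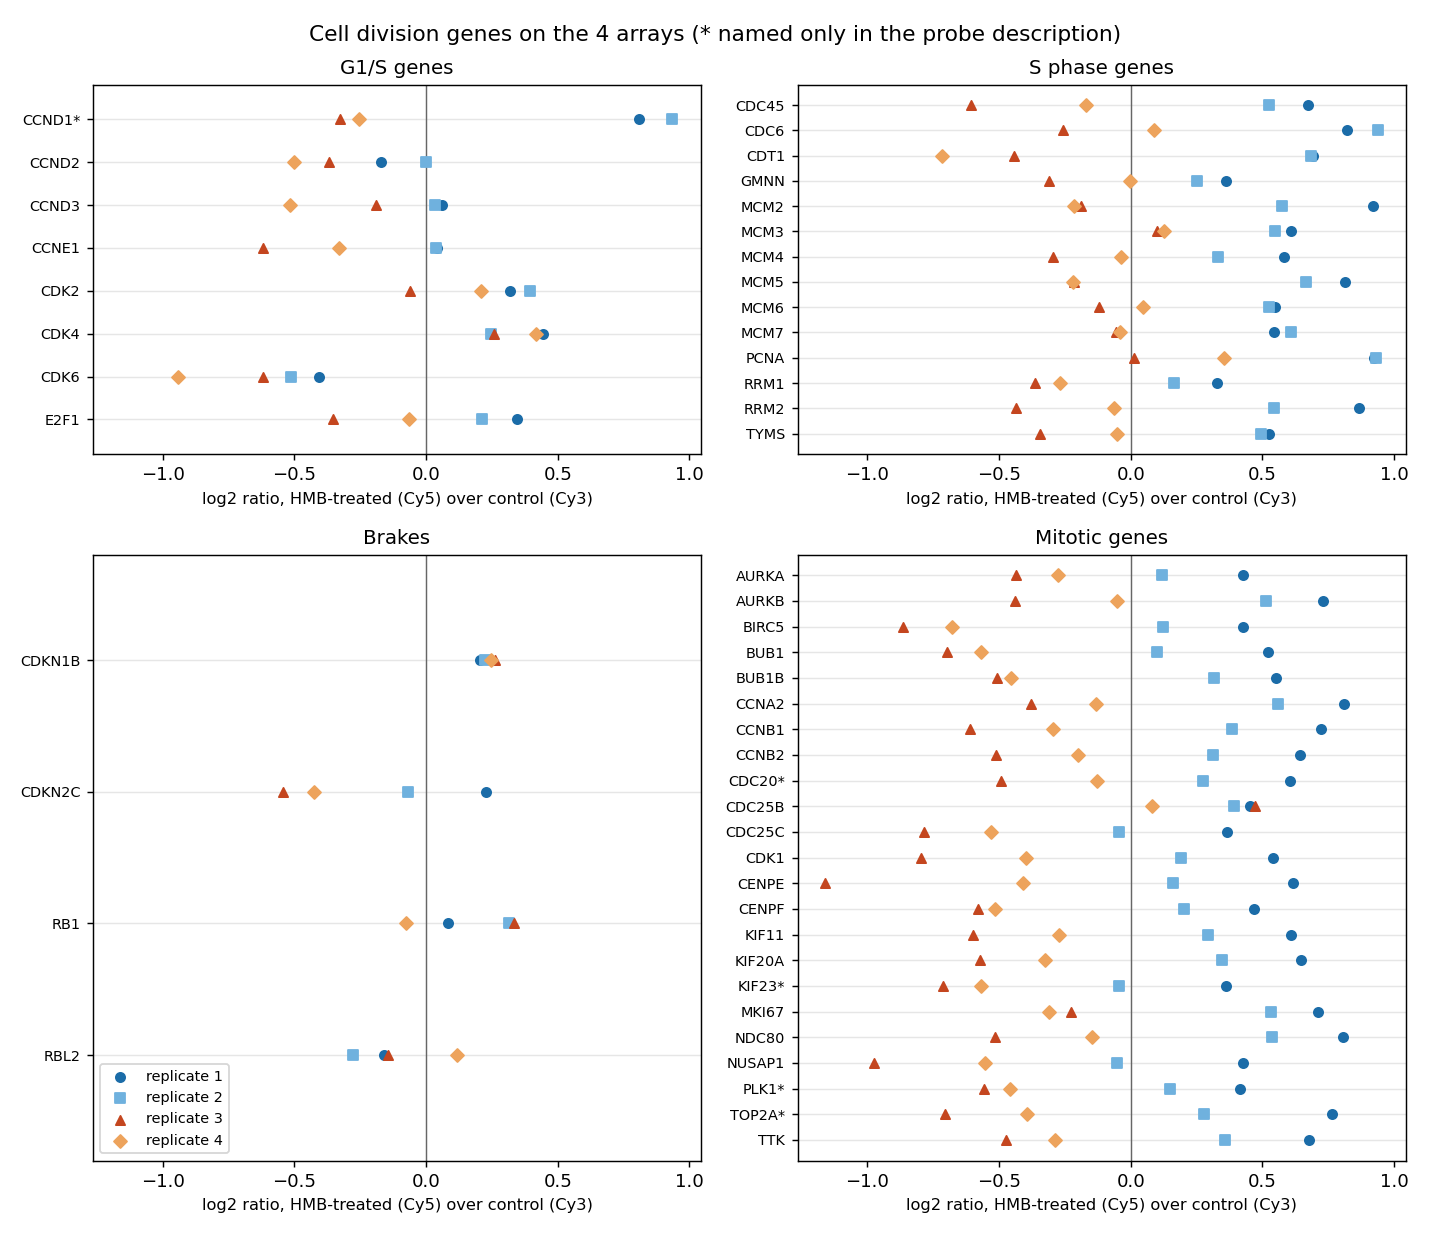
The log2 ratio of HMB-treated over control (horizontal axis) of every tested cell division gene on the 4 arrays, with 1 symbol per replicate and 1 panel per group of genes; an asterisk marks genes named only in the probe description. S phase and mitotic genes lie mostly right of 0 on replicates 1 and 2 and mostly left of 0 on replicates 3 and 4. CDK6, CDK4 and CDKN1B stay on 1 side, as do the S phase genes PCNA and MCM3 and the mitotic gene CDC25B.

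Among the genes of the G1/S passage 7 of 10 were tested by gene name, of which 1 was called, CDK6. CDK6 is a kinase partner of the D cyclins. Its log2 ratio was -0.41, -0.51, -0.62 and -0.94 on replicates 1 to 4. All 4 values were below 0, with a mean of -0.62 ± 0.23 (SD, n = 4), a limma SE of 0.10, an FC of 1.54 and an adjusted p of 0.00336 in limma. Without any 1 of the arrays the mean lay between -0.69 and -0.51 and CDK6 was still called.

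CDK4, the other partner of the D cyclins, was above 0 on every array, opposite to CDK6. Its ratio was 0.44, 0.25, 0.26 and 0.42, with a mean of 0.34 ± 0.10 (SD, n = 4). The limma adjusted p was 0.00801, but the FC of 1.27 stayed under the limit. The difference between the 2 kinases was not tested. CDK2, which acts with the E cyclins, had a mean of 0.22 and a limma adjusted p of 0.0910.

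The cyclins of the G1/S group had lower values on replicates 3 and 4 than on replicates 1 and 2. The D cyclin CCND2 gave -0.17, 0.001, -0.37 and -0.50 (mean -0.26, limma adjusted p 0.0641). The D cyclin CCND3 had a mean of -0.15. The E cyclin CCNE1 gave 0.04, 0.04, -0.62 and -0.33 (mean -0.22). None of them was called. E2F1, a transcription factor released by the retinoblastoma protein, had the widest range of the group, with 0.35, 0.21, -0.35 and -0.07. CCND1, a D cyclin found by its probe description only, ranged more widely still: 0.81, 0.93, -0.33 and -0.26, with a mean of 0.29 ± 0.67 (SD, n = 4). CCNE2 was well above background in no control sample and in 2 of the 4 HMB-treated samples, and CDC25A, a phosphatase that activates CDK2, in none, so no fold is given for them.

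The brakes showed small differences and no call in 4 tested genes of 5. CDKN1B, the inhibitor p27, had the narrowest range of the group: 0.21, 0.23, 0.26 and 0.25. Its mean was 0.24 ± 0.03 (SD, n = 4), with a limma adjusted p of 0.0173 and an FC of 1.18. These values are of its brightest probe. The 5 overlapping probes of CDKN1B had means of 0.19 to 0.25, all under the FC limit, and ranges over the arrays of 0.06 to 0.30. CDKN2C, an inhibitor of CDK4 and CDK6, went the way of the cyclins, with 0.23, -0.07, -0.54 and -0.42. RB1, the retinoblastoma protein, gave 0.08, 0.31, 0.34 and -0.08 with its brighter tested probe, and its other tested probe had a mean of -0.05. The related RBL2 had a mean of -0.12, and RBL1 was well above background on 3 arrays in each channel.

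All 14 S phase genes were tested and 1 was called, PCNA, the sliding clamp of the DNA polymerases. With its brightest probe the ratio was 0.92, 0.93, 0.01 and 0.36, above 0 on all arrays but close to 0 on replicate 3. The mean was 0.56 ± 0.45 (SD, n = 4), with a limma SE of 0.17, an FC of 1.47 and an adjusted p of 0.0337 in limma. Only 1 of the 3 PCNA probes was called. The neighbouring probe had a mean of 0.37 (limma adjusted p 0.113) and the third probe one of 0.15 (limma adjusted p 0.371). The call was lost without replicate 1 (mean 0.43, limma adjusted p 0.0925), without replicate 2 (mean 0.43, limma adjusted p 0.111) and without replicate 4 (mean 0.62, limma adjusted p 0.0560).

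MCM3, a subunit of the replicative helicase, came next. It gave 0.61, 0.55, 0.10 and 0.13 (mean 0.35 ± 0.27, SD, n = 4) with a limma adjusted p of 0.0408 and an FC of 1.27, under the limit. It was called without replicate 3 (mean 0.43) and without replicate 4 (mean 0.42), and was further from the limit without replicate 1 (mean 0.26, limma adjusted p 0.129) and without replicate 2 (mean 0.28, limma adjusted p 0.135). The helicase subunit MCM2 gave 0.92, 0.57, -0.19 and -0.22, and MCM5 gave 0.81, 0.67, -0.22 and -0.22. For both genes the arrays with the high and the low values lay about 1 log2 unit apart, and their means of 0.27 and 0.26 were not called. The subunits MCM4, MCM6 and MCM7 had means of 0.14, 0.25 and 0.26.

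The genes that load the helicase and supply nucleotides split over the arrays in the same way. CDC6, a loading factor, gave 0.82, 0.94, -0.26 and 0.09. CDT1, its partner, had the widest range of the S phase genes, with 0.69, 0.69, -0.44 and -0.72. None of these genes was called, and GMNN, the inhibitor of CDT1, had a mean of 0.08. RRM2, a subunit of ribonucleotide reductase, gave 0.87, 0.54, -0.43 and -0.06. TYMS, which makes thymidylate, gave 0.52, 0.49, -0.35 and -0.05. The other reductase subunit RRM1 had a mean of -0.03 and CDC45, which travels with the helicase, one of 0.11.

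The group of S phase genes as a whole had medians of 0.64, 0.55, -0.28 and -0.05 on replicates 1 to 4, while the medians of all tested probes were -0.06, -0.07, -0.08 and -0.07. All 14 genes were above 0 on replicate 1 and on replicate 2, against 2 on replicate 3 and 4 on replicate 4. The shares of all tested probes above 0 were 42.6%, 42.8%, 42.3% and 41.7%. The median of the means was 0.24, and leaving out replicate 1 brought it to 0.04 and replicate 2 to 0.12.

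Of the 25 symbols of mitosis 19 genes were tested by name, and 0 were called. The limma fit gave 1 of them, CDC25B, an unadjusted p under 0.05, against 13570 of all 24669 tested probes. The count of calls was also 0 with limma's trend and robust options and with array quality weights. CDC25B, a phosphatase that activates CDK1, gave 0.45, 0.39, 0.47 and 0.08 (mean 0.35 ± 0.18, SD, n = 4; limma adjusted p 0.0164; FC 1.27). It was the mitotic gene with the narrowest range, and it was called without replicate 4 (mean 0.44) but had a limma adjusted p of 0.0576 to 0.0625 without any 1 of the others. The median over the 19 means was 0.01, and it was -0.19 without replicate 1 and 0.21 without replicate 3.

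The other mitotic genes moved between the arrays far more than this median shows. CDK1, the kinase that starts mitosis, gave 0.54, 0.19, -0.79 and -0.40, and its other probe gave 0.60, 0.26, -0.79 and -0.37. Its partner CCNB1 (cyclin B1) gave 0.72, 0.39, -0.61 and -0.30, and CCNA2 (cyclin A2) gave 0.81, 0.56, -0.38 and -0.13. In each of them the values on replicates 1 and 2 lay above 0 and those on replicates 3 and 4 below it, and the mean over 4 arrays lay between them.

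MKI67, the widely used marker of dividing cells, gave 0.71, 0.53, -0.23 and -0.31 with its brighter probe and 0.79, 1.23, 0.07 and -0.02 with the other. The kinase AURKB gave 0.73, 0.51, -0.44 and -0.05, and BIRC5 (survivin), which works with it, gave 0.43, 0.12, -0.86 and -0.68. CENPE, a motor protein of the kinetochore, gave 0.62, 0.16, -1.16 and -0.41, the widest range of all tested cell division genes (1.78). NUSAP1, a spindle protein, gave 0.42, -0.05, -0.97 and -0.55. AURKB, BIRC5, CENPE and NUSAP1 had their highest value on replicate 1 and their lowest on replicate 3.

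The mitotic genes named by description were also highest on replicate 1 and lowest on replicate 3. TOP2A, a topoisomerase that untangles chromosomes, gave 0.76, 0.28, -0.70 and -0.39. PLK1, a mitotic kinase, gave 0.42, 0.15, -0.56 and -0.46. CDC20, an activator of the anaphase-promoting complex, and the motor protein KIF23 had means of 0.06 and -0.24. FOXM1, a transcription factor of mitotic genes, was found by gene name but was too dim for a test. It was well above background on 3 arrays in each channel. Its values of 0.85, 0.89, -0.23 and -0.38 were highest on replicate 2 and lowest on replicate 4. With the 5 genes named by description included, the calls remained CDK6 and PCNA.

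The remaining mitotic genes were AURKA, BUB1, BUB1B, CCNB2, CDC25C, CENPF, KIF11, KIF20A, NDC80 and TTK, which include kinases, motors and checkpoint and kinetochore proteins. Over all 19 genes the medians were 0.61, 0.31, -0.57 and -0.31 on replicates 1 to 4. On replicate 1 all 19 genes were above 0, on replicate 2 17, on replicate 3 1 and on replicate 4 1. Replicate 1 had the highest ratio in 18 of the 19 genes, against 22.2% of all tested probes, and replicate 3 the lowest in 17, against 28.0%.

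The second comparison concerned how the arrays differed. The pattern of above 0 on replicates 1 and 2 and below 0 on replicates 3 and 4, which was chosen after the values were seen, was shown by 16 of the 19 mitotic genes, 10 of the 14 S phase genes, 3 of the 7 G1/S genes and 0 of the 4 brakes. Of all tested probes 3.90% showed it. Medians of the G1/S genes were 0.06, 0.04, -0.35 and -0.33, and those of the brakes 0.14, 0.08, 0.06 and 0.02, of which the last pair turned below 0 with no filter on dim probes (-0.14 and -0.03). The same sign on all 4 arrays was seen in 6 of the 44 genes and in 61.5% of all tested probes.

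The SD of the 4 ratios put the groups in an order of mitotic genes (median 0.54), S phase genes (0.44), G1/S genes (0.23) and brakes (0.18). The median over all tested probes was 0.16 and their 95th percentile 0.44. Above that percentile, which by construction 5% of the tested probes exceed, were 17 of the 19 mitotic genes, 7 of the 14 S phase genes, 0 of the 7 G1/S genes and 0 of the 4 brakes. The error that the scanner software gives for a single log2 ratio had a median of 0.21 over the 44 genes and also 0.21 over all tested probes. In 25 of the 44 genes the range over arrays was more than 4 times the largest such error. That count was not made over all tested probes, so it does not set these genes apart.

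**Figure D2:**
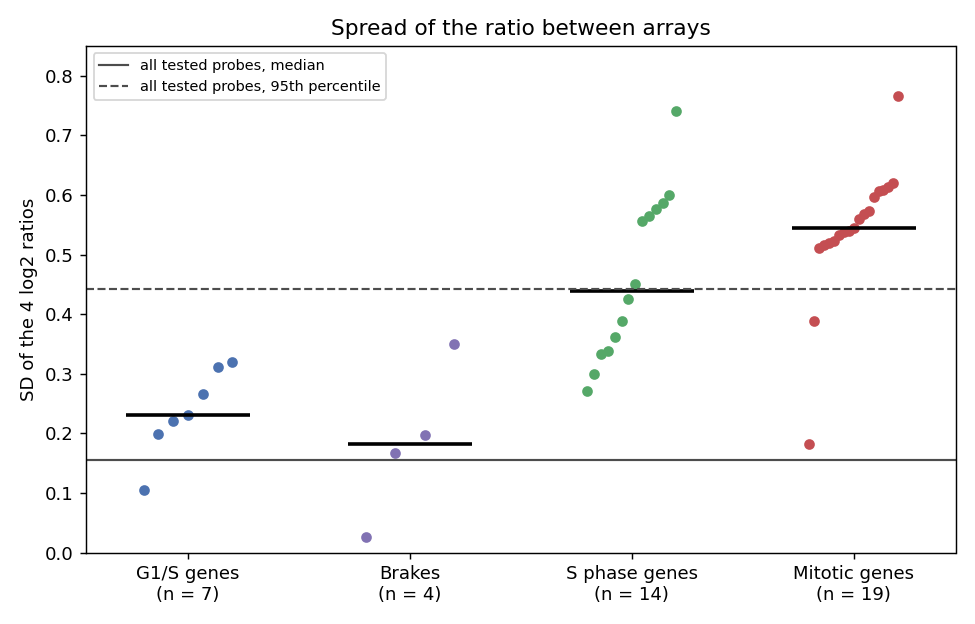
The SD of the 4 log2 ratios of each tested gene (points) by group, with the median of the group (bar), and the median and 95th percentile of all tested probes (solid and dashed lines). Nearly all mitotic genes lie above the dashed line at 0.44, and no G1/S gene or brake does.

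In most genes with several probes, the probes lay closer together on an array than the arrays lay to each other. Several tested probes were present for 21 genes, those named by description included. In 19 of them the largest gap between probes on an array was smaller than the smallest range of a probe over the arrays. RB1 and CDKN1B were the exceptions. By its brightest probe CDKN1B had the narrowest range over arrays of all tested genes (0.06), while its other probes ranged over 0.15 to 0.30. For CDK1 the largest gap between probes was 0.07 and the smallest range 1.34. For MKI67 the values were 0.70 and 1.02, and for PCNA 0.49 and 0.64. Probes overlap in several of these genes, such as MCM2, MCM3, PLK1 and CDKN2C, and in part in TYMS and PCNA. Close agreement was largely built in there. The share among all genes with several probes was not computed.

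**Figure D3:**
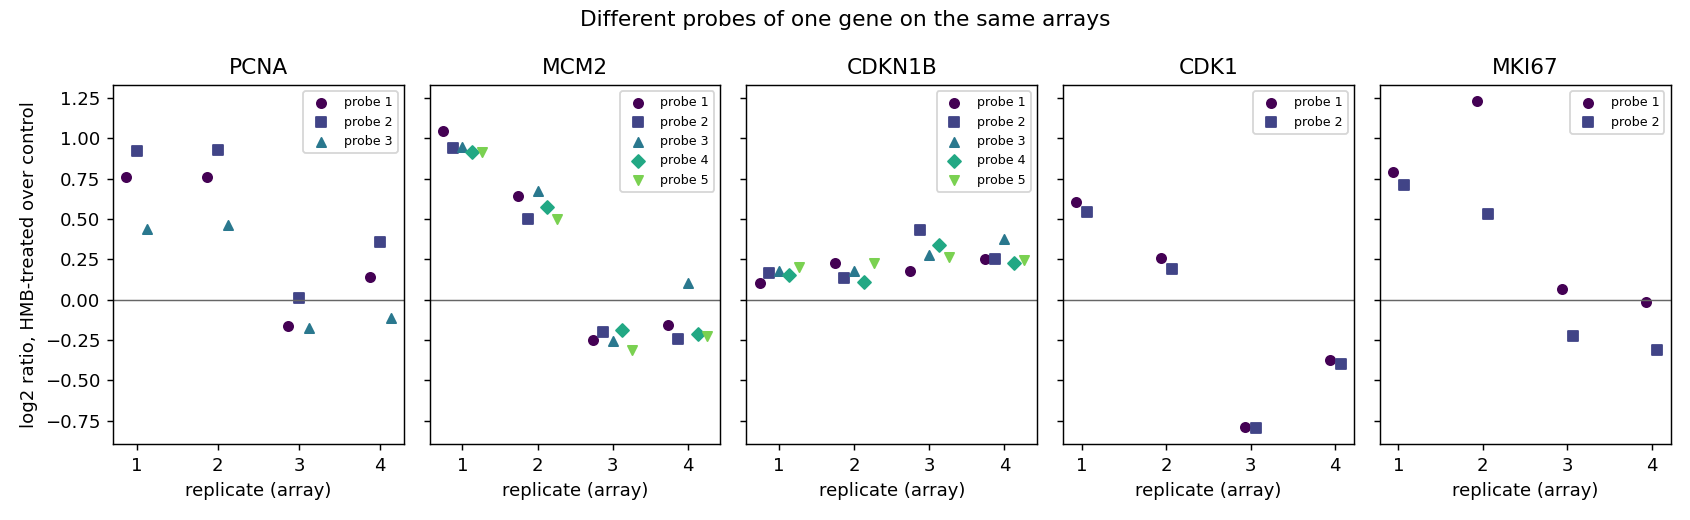
The log2 ratio of HMB-treated over control (vertical axis) on each array (horizontal axis) for all tested probes of 5 genes, with 1 symbol per probe. Probes of CDK1 and MCM2 lie together on each array and move together between arrays, and the 3 PCNA probes keep a distance from each other. All CDKN1B probes stay above 0. The MCM2 probes overlap each other, as do the CDKN1B probes.

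The third comparison took the channels apart. If the arrays shared 1 control RNA, the Cy3 differences given here are between labellings of that RNA and not between control cultures. A level is the log2 signal less the 75th percentile of its channel and array, and it is given as the difference from the gene's own mean over the 4 arrays. In HMB-treated cells (Cy5) the median level of the mitotic genes was 0.48, 0.05, -0.45 and -0.09 on replicates 1 to 4. In control cells (Cy3) it was -0.11, -0.24, 0.13 and 0.23. The span over the arrays was 0.93 in HMB-treated and 0.47 in control cells, and the array with the highest Cy3 median was not the one with the highest Cy5 median. The Cy5 range was the wider one in all 19 mitotic genes, and over all tested probes it was so in 15674 of 24669.

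The S phase genes had median levels of 0.31, 0.18, -0.31 and -0.11 in HMB-treated and of -0.14, -0.15, 0.15 and 0.14 in control cells. Spans were 0.62 and 0.30. The G1/S genes spanned 0.39 in HMB-treated and 0.05 in control cells (0.12 in control cells before dye normalization), and the brakes 0.17 and 0.13. Medians of all tested probes stayed between -0.03 and 0.02 in both channels.

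Single genes showed the same. CDK1 was at 0.53, 0.01, -0.48 and -0.06 in HMB-treated cells and at -0.13, -0.30, 0.21 and 0.23 in control cells. PCNA was at 0.20, 0.13, -0.33 and -0.004 in HMB-treated and at -0.17, -0.26, 0.23 and 0.20 in control cells. CENPE was at 0.43, 0.17, -0.54 and -0.07 in HMB-treated and at -0.38, -0.20, 0.44 and 0.15 in control cells. In each gene the HMB-treated sample of replicate 1 was the highest of its channel and that of replicate 3 the lowest. By its brightest probe, CDKN1B moved alike in both channels. It was at -0.01, 0.22, 0.02 and -0.23 in HMB-treated and at 0.02, 0.22, 0.01 and -0.24 in control cells, which leaves the ratio of that probe level.

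**Figure D4:**
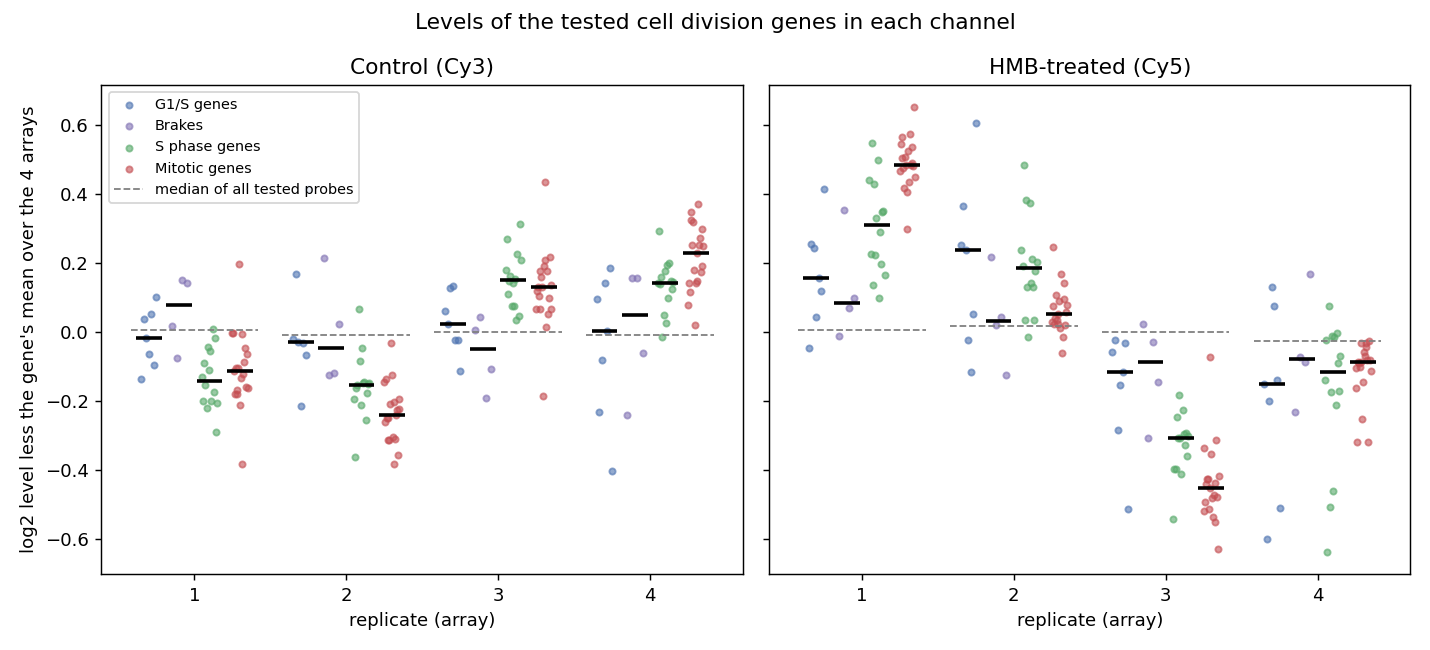
The log2 level of each tested gene in control cells (Cy3, left) and HMB-treated cells (Cy5, right), less the gene's own mean over the 4 arrays, by replicate; bars are medians of the groups and dashed lines the medians of all tested probes. Mitotic and S phase genes are high on replicate 1 and low on replicate 3 in Cy5, and lower on replicates 1 and 2 than on 3 and 4 in Cy3.

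Array by array, replicate 1 held the highest Cy5 level in all 19 mitotic genes and in 12 of the 14 S phase genes, against 24.5% of all tested probes. Replicate 3 held the lowest Cy5 level in 17 and 11 of them, against 23%. In Cy3 replicate 2 was the lowest in 16 mitotic and 9 S phase genes, against 26.5%, and replicate 4 the highest in 15 and 7, against 24.6%. Between 57.6% and 60.6% of the spots were well above background in Cy3 and between 55.2% and 61.8% in Cy5, and 13 to 35 spots per array were marked as outliers. Over all tested probes, which are not independent of each other, the ratios of a pair of arrays correlated with r of 0.84 to 0.92. The number of arrays limits the precision.

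Other genes of the same pathway, listed apart from the 54, showed the pattern too. Of 47 further replication genes 37 were tested, with medians of 0.39, 0.32, -0.40 and -0.17. Of 66 further mitotic genes 52 were tested, with medians of 0.59, 0.24, -0.52 and -0.29. The pattern of signs was seen in 26 of the 37 and in 39 of the 52. The 21 tested genes of 25 around the G1/S passage had medians of 0.18, 0.11, 0.02 and -0.02, and 4 of them showed it.

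Of these 110 tested genes 5 were called higher and 1 lower, against 10.1% and 17.2% of all symbols. MYC, a transcription factor of growing cells, rose, with 0.61, 1.11, 0.73 and 0.90 (mean 0.84 ± 0.22, SD, n = 4; limma adjusted p 0.000874). E2F4, the E2F factor of resting cells, rose with a mean of 0.54 ± 0.19 (SD, n = 4; limma adjusted p 0.00383). LMNB1, lamin B1 of the nuclear envelope, rose with a mean of 0.51 ± 0.27 (SD, n = 4; limma adjusted p 0.0107). The only fall was that of E2F6, a repressor of the E2F family, with -0.40, -0.45, -0.83 and -0.89 (mean -0.64 ± 0.25, SD, n = 4; limma adjusted p 0.00368). E2F6 was well above background in 4 control but only 3 HMB-treated samples, so it entered the test through the channel in which it was high. With normexp and loess the means shrank to 0.20 for E2F4, 0.22 for LMNB1 and -0.14 for E2F6 and their calls were lost, as they were with no background correction and loess (0.31, 0.27 and -0.22), while MYC was called under both. E2F5 (mean 0.47) and CHAF1A (mean 0.51), which are named after their values were seen, were the other calls. All 6 called genes kept 1 sign on the 4 arrays, as did CDK6, CDK4 and the called probe of PCNA. A call rests on the mean of the 4 ratios and so favours genes of 1 sign. The other PCNA probes changed sign. The neighbour gave 0.76, 0.76, -0.16 and 0.14, and the third probe 0.44, 0.46, -0.17 and -0.11.

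Markers of cell types were set beside the division genes. Of 19 muscle markers 12 were tested and 9 were called lower, against 17.2% of all symbols, with medians of -0.92, -0.90, -0.70 and -1.03 on replicates 1 to 4. MYF6, 1 of the 9, was well above background in 4 control but 0 HMB-treated samples, so it was tested through the control channel alone and its fall is only a bound. The tested muscle markers not called were MEF2C (mean -0.15), MYOG (mean 0.03) and MYOD1 (mean 0.32, limma adjusted p 0.0441, FC 1.25). Of 10 fibroblast markers 8 were tested and 5 were called higher, against 10.1% of all symbols, with medians of 0.63, 0.39, 0.69 and 0.40. Those not called were COL1A2 (mean -0.23), COL3A1 (mean 0.06) and VIM (mean 0.10). This holds for the brightest probe, and 3 of the 7 tested probes of COL3A1 were called. The muscle and fibroblast medians both kept their direction on all 4 arrays. Of the tested markers of these lists 0 showed the sign pattern of the division genes, against 3.90% of all tested probes. With so few markers, a count of 0 is close to that share. In control cells the median level of the muscle markers was 0.10, 0.06, -0.12 and -0.01 and in HMB-treated cells -0.04, 0.04, 0.12 and -0.14, as differences from each gene's mean. None of 5 endothelial and of 4 adipocyte markers was bright enough for a test, and of 6 immune markers CD14 and CD68 were, with CD68 called higher. The part of cell types in the values of the division genes was not tested.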

How the data were processed

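RNA of HMB-treated and control cells (RIN of at least 9.2; 4 samples of each per the methods, 1 replicate number for the control per the labels) was measured on 4 Agilent horse arrays in 2 colours. The authors deposited scanner files made by Feature Extraction (10.10.1.1 per the file headers): the intensity of each spot and channel, background-subtracted and dye-normalized by lowess, and the log10 ratio of Cy5 over Cy3. A deposited table of the series holds the same log10 ratios. Of 45220 spots per array 43803 were not controls and gave 43603 probes. The deposited log10 ratios were turned into log2 ratios, spots marked as non-uniform or population outliers were dropped, and spots of 1 probe were averaged. Flags deposited as other values (well above background, outlier, saturated) served as filters.

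A probe was tested where Cy3 or Cy5 was well above background on all 4 arrays and at least 3 ratios were left. Ratios were tested against 0 with limma 3.58.1 in R 4.3.3 (intercept, eBayes, Benjamini-Hochberg over 24669 probes; called at an adjusted p of 0.05 or less and FC of at least 1.3). limma replaced the t-test of the methods, which served as an alternative. A gene stood for its brightest tested probe. Levels were log2 of the processed signal with a floor of 1, less the 75th percentile. No saturated spot was found among the probes of the cell division genes (0 spots).

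Genes named in the text were all called ones, a list of well known members, and in each group the 2 with the widest and the 1 with the narrowest range, with single additions. Of the other pathway genes, the 3 called genes with the largest rise and the only 1 called lower were named. The members and all lists were chosen with earlier results of these data known. Promoter and protein sequences were not analysed here. No column was left without a sample. Alternatives were other backgrounds, dye normalizations, scalings, filters, tests and probe summaries, and leaving out each array.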

Additional observations from a re-analysis of the deposited data

How the results depend on the processing

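CDK6 was called lower under all 16 alternatives, those without 1 array included, with means of -0.69 to -0.42. PCNA was not called under 6 alternatives: the methods' t-test (adjusted p 0.159), no filter on dim probes (adjusted p 0.152), the mean over its probes (mean 0.36, adjusted p 0.0974) and without replicates 1, 2 and 4. The count of called cell division genes, 2 as reported, was 1 with the methods' t-test, 1 with no filter on dim probes, 1 with the mean over probes, 4 with no background correction and loess, 7 with median centring in place of lowess, and between 1 and 3 when an array was left out. The 7 were CDC25B, CDK4, CDK6, MCM3, MCM6, MCM7 and PCNA. All called probes, 7046 as reported, were 3539 with normexp and loess and 4440 with no background correction and loess. The count of other pathway genes, 6 as reported, was 3 with the methods' t-test, 3 with no filter on dim probes, 1 with normexp and loess, 2 with no background correction and loess, and between 5 and 10 when an array was left out. The median of the brakes, 0.024 as reported, was 0.098 with no background correction and loess, 0.12 with median centring, 0.16 with no filter on dim probes and -0.031 with the mean over probes. The cause of these shifts was not tested. Over the alternatives, 24 of 508 values of named genes turned sign, all of them of genes that were not called. CCND1, PLK1 and TOP2A, named by description, are among these genes. The methods' t-test, limma's trend and robust options and both changes of the brightness filter left the means as they were. No sign could turn there, so the share understates how often signs turned where the ratios changed. With marked spots kept and with the deposited table of ratios, 0 turned. The medians on single arrays kept their sign under every alternative for the mitotic genes, and for the S phase genes on replicates 1 to 3 (mitotic genes 0.59 to 0.71, 0.31 to 0.44, -0.58 to -0.16 and -0.33 to -0.23 on replicates 1 to 4), but the S phase median of replicate 4 ranged from -0.06 to 0.18. The G1/S medians of replicates 3 and 4 shrank to -0.04 and -0.05 with normexp and loess. The brake medians ranged from -0.14 to 0.17 on replicate 3 and from -0.03 to 0.15 on replicate 4. Spans of the channel levels on other scales were 0.92 to 0.97 in Cy5 and 0.47 to 0.51 in Cy3 for the mitotic genes, but the Cy3 span of the G1/S genes ran from 0.05 to 0.12. The test used the pairing on the array, because each ratio sets the HMB-treated sample against the control sample of the same array. Whether this pairs cultures is not settled, because the arrays may have shared 1 control RNA. With 1 group of ratios, no further pairing was possible.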
